A study of Mus musculus with 15 samples.

Results

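Aldh1a1 and 8 other genes of retinoid signalling are described here in dopamine neurons of the embryonic mouse midbrain. The 9 genes (Aldh1a1, Rdh10, Crabp1, Crabp2, Rara, Rarb, Rxra, Rxrb and Rxrg) were taken by symbol. All 9 were among the 21566 genes of the table of sorted cells, and 3 of them (Aldh1a1, Rdh10 and Rxrb) were among the 10781 genes of the time series table. The other 6 were not analysed across ages. RNA was sequenced from ventral midbrain cells of Pitx3-GFP mice. Green fluorescent protein (GFP) there stands for use of Pitx3, a transcription factor gene of midbrain dopamine neurons. The first experiment set 3 libraries of GFP+ cells against 3 of GFP− cells, all from embryonic day 14 (E14). The second followed GFP+ cells at E14, at embryonic day 16 (E16) and at birth (P0), with 3 libraries per age, so that the 15 samples form 5 groups. Every sample carried the same Pitx3-GFP genotype and was purified by fluorescence-activated cell sorting, with no drug or other treatment named. Whether the reporter allele lowers Pitx3 itself was not given in the sources used here.

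The tissue came from 3 litters, and nothing says that each replicate was a litter of its own, so p-values measure the spread between these libraries, part of which may be technical. Values are normalized reads, which are reads per gene divided by 1 scaling factor per library. The sorted libraries held 17369191 to 22374153 reads and the time series libraries 17910017 to 33386535 reads over the listed genes. The summed level of 8 dopamine neuron markers (Th, Slc6a3, Slc18a2, Ddc, Nr4a2, En1, Lmx1b and Foxa2) was 75212 to 82437 normalized reads in GFP+ libraries, against 5000 to 6498 in GFP− libraries. The labels name dopamine neurons as the cell type of the GFP− samples too. Their leading markers were instead those of radial glia, whose 8 genes summed to 6992 to 8450 normalized reads in GFP+ libraries, against 72146 to 85365 in GFP− libraries. Markers of further cell types in the GFP− fraction are given below beside the receptors.

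Retinoic acid is made from vitamin A inside cells. Retinol is oxidized to retinaldehyde by retinol dehydrogenases such as Rdh10, and retinaldehyde is oxidized to retinoic acid by the retinaldehyde dehydrogenases, of which Aldh1a1 is one. Small cellular binding proteins (Crabp1 and Crabp2) carry retinoic acid, Cyp26 enzymes destroy it, and the retinoic acid receptors (Rara, Rarb and Rarg) bind DNA as pairs with a retinoid X receptor (Rxra, Rxrb or Rxrg). Retinoid X receptors also pair with other nuclear receptors, among them Nr4a2 (Nurr1), which dopamine neurons need for their development. In the adult midbrain Aldh1a1 marks a ventral group of dopamine neurons, where it also clears the reactive aldehyde made when dopamine is broken down.

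Promoter sequences of 4 of the genes are shown, since Rarb is a known direct target of retinoic acid receptors, Rxra and Rxrg differed between the sorted fractions alongside it, and Aldh1a1 had one of the largest changes in both experiments. They are RefSeq sequences on GRCm38.p6, written 5′ to 3′ on the gene's own strand, from the bases before an annotated transcript start. RefSeq promoters were matched by symbol for 7 of the 9 genes, with 14 windows of 250 bases among them, and Rdh10 and Crabp2 had no entry. Each window shown lies inside the span of its gene in GENCODE M21, in which longer transcripts start further upstream. The 250 bases upstream of a Rarb start (chr14:16575477-16575726, minus strand) hold a direct repeat with a spacer of 5 bases, the classical form of a retinoic acid response element, in capitals at 53 to 37 bases before the start.
Rarb: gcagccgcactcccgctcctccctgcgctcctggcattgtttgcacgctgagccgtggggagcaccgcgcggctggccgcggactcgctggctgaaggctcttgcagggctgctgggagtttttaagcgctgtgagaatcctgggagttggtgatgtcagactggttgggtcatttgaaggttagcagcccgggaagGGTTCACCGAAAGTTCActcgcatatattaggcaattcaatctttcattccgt
The 250 bases upstream of an Aldh1a1 start (chr19:20601718-20601967, plus strand) hold a CCAAT box, in capitals at 72 to 68 bases before the start.
Aldh1a1: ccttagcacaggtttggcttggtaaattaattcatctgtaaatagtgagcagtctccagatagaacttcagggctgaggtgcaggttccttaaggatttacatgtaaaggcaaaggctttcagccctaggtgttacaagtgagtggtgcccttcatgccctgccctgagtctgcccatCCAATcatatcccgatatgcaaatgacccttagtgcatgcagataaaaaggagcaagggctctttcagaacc
Stretches of 60 bases upstream of an Rxra start (chr2:27709216-27709275, plus strand) and of an Rxrg start (chr1:167618149-167618208, plus strand) hold AAAGGTCA, in capitals, the word that Nr4a2 and its relatives read as single proteins.
Rxra: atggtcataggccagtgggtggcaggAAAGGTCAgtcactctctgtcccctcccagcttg
Rxrg: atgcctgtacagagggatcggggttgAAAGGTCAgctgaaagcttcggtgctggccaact

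Direct repeats were searched on both strands as a pair of half-sites, each of which could be AGGTCA, the variant GGGTCA, the variant AGTTCA or the variant GGTTCA, in the same direction with a spacer of 1, 2 or 5 bases. The spacer of 5 was found in 1 of the 14 windows (that of Rarb) and in 29 of all 32851 mouse windows of the same length, or 0.0883%. Spacers of 1 and 2 bases were found in 0 of the 14 windows, against 54 and 57 of all windows. AAAGGTCA, which contains the half-site AGGTCA, was found in 2 of the 14 windows and in 1.34% of all windows. The common CCAAT was found in 4 of the 14 windows and in 33.8% of all windows, and TAATCC, the word that Pitx proteins read, in 0 of the 14 and 6.25% of all. A match is a description of the letters and says nothing of binding in these cells.

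At E14 Aldh1a1, 1 of the retinaldehyde dehydrogenase genes, was far higher in GFP+ cells. Of the 6 receptor genes 4 passed as lower there, while Rxrb and Rarg did not pass. In the limma-trend test with Benjamini-Hochberg adjustment over 18260 genes, 6 of the 9 genes passed an adjusted p of 0.05 in GFP+ against GFP− cells, 1 higher (Aldh1a1) and 5 lower (Rarb, Rxra, Rxrg, Crabp1 and Rara). Across all genes tested 30.7% passed, with 12.7% higher and 18.0% lower. The median log2 fold change of the 9 genes was −0.64, beside 0.02 over all genes. The libraries of the GFP+ and GFP− groups did not overlap for 7 of the 9 genes, against 44.1% of all genes. Scaling each library to the same total changed the split over all genes to 1559 higher and 4020 lower, beside 2313 higher and 3286 lower, and changed the direction of none of the 9 genes. All fold changes below are on the scale of log2(normalized reads + 1), which understates changes of genes with few reads.

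**Figure D1:**
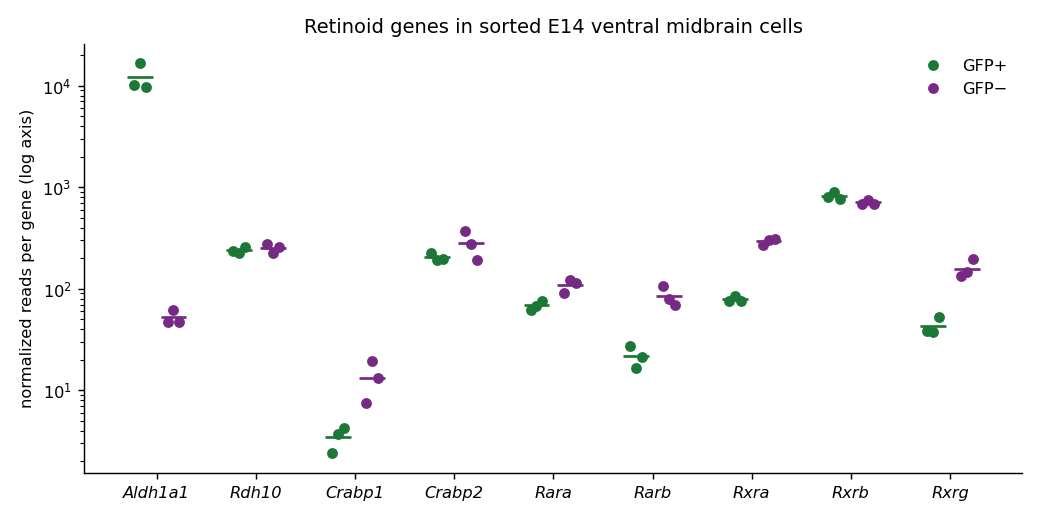
Normalized reads of the 9 retinoid genes in each sorted E14 library, GFP+ (green, left of each pair) and GFP− (purple, right), on a log axis, with a line at each group's mean of 3 libraries. Aldh1a1 stands at 9722 to 16580 in GFP+ libraries, against 47.2 to 62.1 in GFP− libraries, while Rarb, Rxra, Rxrg, Rara and Crabp1 lie lower in every GFP+ library than in any GFP− library.

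Aldh1a1 (ENSMUSG00000053279, chromosome 19, 20492715 to 20643465 on GRCm38, plus strand) had 10156, 16580 and 9722 normalized reads in the 3 GFP+ libraries, against 47.4, 62.1 and 47.2 in the 3 GFP− libraries. The lowest GFP+ library lay far above the highest GFP− library, and the second GFP+ library stood above the other two. The log2 fold change was 7.80 (SE 0.19, 95% interval 7.39 to 8.21), or 223-fold, with an adjusted p of 4.2e-10 from limma. Only 2 of the 18260 genes had a larger fold change. Aldh1a1 took 0.0475% to 0.0810% of the reads in GFP+ libraries, against 0.000241% to 0.000326% in GFP− libraries. Per kilobase of exon it was the highest of the 9 genes in GFP+ cells (2462 ± 778 normalized reads per kilobase, SD, n = 3) and the lowest in GFP− cells (10.6 ± 1.7).

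The step before Aldh1a1 was measured by Rdh10 and Dhrs3. Rdh10, the main retinol dehydrogenase of the mouse embryo (ENSMUSG00000025921, chromosome 1, 16105774 to 16133734, plus strand), had 233.3, 227.6 and 259.5 normalized reads in GFP+ libraries, against 276.6, 225.8 and 258.8 in GFP− libraries. These ranges overlapped, and the log2 fold change was −0.08 (95% interval −0.35 to 0.20, adjusted p 0.69 from limma). That interval overlaps the interval of Rara (−1.05 to −0.24), 1 of the 5 lower genes. Differences between genes were not tested. Dhrs3, which turns retinaldehyde back into retinol, rose: it had 483.4, 512.6 and 517.9 normalized reads in GFP+ libraries, against 229.3, 223.1 and 230.0 in GFP− libraries (log2 fold change 1.15, SE 0.10, adjusted p 4.62e-06 from limma).

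Of the 22 genes of retinoid synthesis listed, 15 were tested. Of these, 11 passed, 4 higher and 7 lower, beside 30.7%, 12.7% and 18.0% of all genes tested. The list's median log2 fold change was −0.22. Besides Aldh1a1 and Dhrs3, the higher genes were Aldh1a7 and Aldh1a3. Aldh1a3, another retinaldehyde dehydrogenase, rose on few reads, with 16, 25 and 19 reads in GFP+ libraries, against 6, 10 and 8 in GFP− libraries (log2 fold change 1.38, SE 0.34). Aldh1a2, the third enzyme of this kind, had 11, 5 and 6 reads in GFP+ libraries, against 5, 1 and 5 in GFP− libraries, and its difference did not pass the test (adjusted p 0.217 from limma). Aldh1a7, a near relative of Aldh1a1 on the same chromosome, averaged 41.2 ± 5.3 normalized reads in GFP+ cells and 3.99 ± 1.10 in GFP− cells (SD, n = 3 each). Because 7.49% of the 50-base words of Aldh1a7 transcripts also occur in Aldh1a1, and Aldh1a1 reads were far more numerous, its value is uncertain, and the share of its reads that came from Aldh1a1 was not tested.

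The lower synthesis genes were the retinaldehyde reductase Dhrs4 (104.6 ± 4.8 normalized reads in GFP+ cells and 313.6 ± 14.4 in GFP− cells, log2 fold change −1.57), the retinol dehydrogenases Rdh12 (−2.12), Rdh11 (−0.50) and Rdh14 (−0.43), the alcohol dehydrogenases Adh7 (−1.45) and Adh5 (−0.22), and Bco2 (−1.96), which cleaves carotenoids. Rdh12 and Bco2 rested on at most 18 and 29 reads in a library. The call on Rdh14 was lost without GFP− replicate 3 (log2 fold change −0.32, adjusted p 0.083 from limma), and that on Adh5 was lost without each of 5 libraries (all but GFP− replicate 1), with a log2 fold change of −0.32 to −0.18 over all settings and an adjusted p of up to 0.16 from limma.

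**Figure D2:**
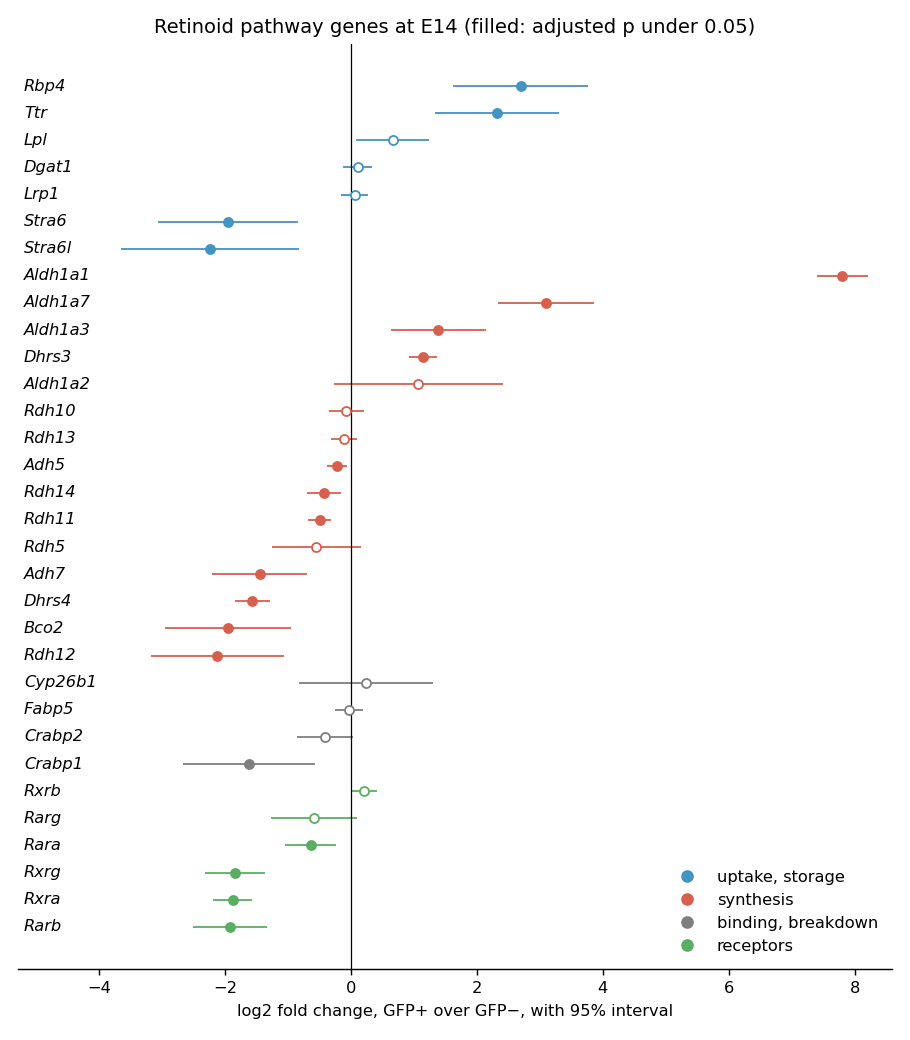
Log2 fold change of GFP+ over GFP− at E14 for each tested gene of 4 retinoid gene lists, with 95% intervals from limma, coloured by role and filled where the adjusted p was under 0.05. Aldh1a1 stands alone at 7.80, and the 4 receptor genes that passed lie between −1.92 and −0.64.

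The carrier proteins of retinoic acid had different values. Crabp2, which hands retinoic acid to its receptors (ENSMUSG00000004885, chromosome 3, 87948666 to 87953376, plus strand), had 226.2, 190.6 and 196.7 normalized reads in GFP+ libraries, against 372.4, 278.3 and 194.1 in GFP− libraries. The third GFP− library lay inside the GFP+ range. Its log2 fold change was −0.41 (SE 0.20, 95% interval −0.86 to 0.03, adjusted p 0.15 from limma), and it passed the test when libraries were paired by replicate number (adjusted p 0.00803) and without GFP− replicate 3 (−0.66, adjusted p 0.0175). Crabp1 (ENSMUSG00000032291, chromosome 9, 54764748 to 54773110, plus strand) had 2.39, 3.70 and 4.25 normalized reads in GFP+ libraries, against 7.54, 19.3 and 13.1 in GFP− libraries, which are 2, 4 and 4 reads in GFP+ libraries against 7, 22 and 15 in GFP− libraries. It fell in GFP+ cells by 1.62 on the log2 scale (SE 0.48, adjusted p 0.0235 from limma), but the call was lost without GFP− replicate 2 (−1.33, adjusted p 0.123), GFP− replicate 3 (−1.59, adjusted p 0.083) or GFP+ replicate 1 (−1.44, adjusted p 0.0513). Per kilobase, Crabp2 made up 97.2 ± 0.9% of the sum of both carriers in GFP+ cells and 92.2 ± 4.0% in GFP− cells (SD, n = 3 each).

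Of the other genes of binding and breakdown, Fabp5, a fatty acid carrier that also binds retinoic acid, was abundant in both fractions, at 14900 ± 1577 normalized reads in GFP+ cells and 15240 ± 1098 in GFP− cells, and did not pass (log2 fold change −0.04, adjusted p 0.821 from limma). Cyp26b1, which breaks retinoic acid down, had 10, 18 and 20 reads in GFP+ libraries, against 14, 30 and 7 in GFP− libraries, and did not pass (log2 fold change 0.24, 95% interval −0.82 to 1.29, adjusted p 0.753 from limma). Crabp1 was the only one of the 4 tested genes of this list to pass, where 30.7% of all genes passed.

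Among the receptors, 4 of 6 genes fell in GFP+ cells and none rose, beside 18.0% and 12.7% of all genes. The median log2 fold change of the 6 was −1.25. Rarb, the receptor gene that retinoic acid itself induces (ENSMUSG00000017491, chromosome 14, 16430839 to 16819156, minus strand), had 27.5, 16.7 and 21.3 normalized reads in GFP+ libraries, against 105.5, 79.6 and 70.0 in GFP− libraries. Every GFP+ library lay below every GFP− library, and the log2 fold change was −1.92 (SE 0.27, adjusted p 0.000186 from limma). The exons of Rarb share 34.1% of their length with Top2b on the opposite strand. No source used here says whether strand entered the counting, so reads in the shared part cannot be told apart between these genes. How those reads were assigned was not tested. Levels of Rarb per kilobase, here and in the sums, shares and order below, take its full exon length with the shared part. Top2b, a DNA topoisomerase, had 25418 ± 1597 normalized reads in GFP+ cells and 23027 ± 1676 in GFP− cells, and its difference did not pass (log2 fold change 0.14, adjusted p 0.272 from limma).

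Rara (ENSMUSG00000037992, chromosome 11, 98927818 to 98974942, plus strand) had 62.2, 68.5 and 76.6 normalized reads in GFP+ libraries, against 91.5, 121.6 and 113.7 in GFP− libraries. It fell by 0.64 on the log2 scale (SE 0.19, adjusted p 0.021 from limma), and the call was lost without GFP− replicate 2 (−0.56, adjusted p 0.0966) or GFP− replicate 3 (−0.61, adjusted p 0.0805). Rarg, the remaining receptor of this class, had 17, 17 and 13 reads in GFP+ libraries, against 24, 35 and 23 in GFP− libraries, and did not pass (log2 fold change −0.59, 95% interval −1.27 to 0.10, adjusted p 0.184 from limma). The groups did not overlap for Rara, while the highest GFP+ library of Rarg (20.3 normalized reads) lay just above the lowest GFP− library (20.1). Summed per kilobase, the 3 retinoic acid receptor genes gave 23.9 ± 1.2 normalized reads per kilobase in GFP+ cells and 47.1 ± 3.1 in GFP− cells (SD, n = 3 each).

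The retinoid X receptors parted from each other. Rxra (ENSMUSG00000015846, chromosome 2, 27676440 to 27762957, plus strand) had 76.6, 84.2 and 76.6 normalized reads in GFP+ libraries, against 269.1, 304.5 and 310.4 in GFP− libraries. Its log2 fold change was −1.88 (SE 0.14, adjusted p 1.08e-06 from limma), and its values were tight within both groups. Rxrg (ENSMUSG00000015843, chromosome 1, 167598384 to 167639623, plus strand) had 38.3, 37.9 and 53.2 normalized reads in GFP+ libraries, against 132.4, 147.0 and 195.0 in GFP− libraries. The third library was the highest in both groups, and the log2 fold change was −1.85 (SE 0.22, adjusted p 4.71e-05 from limma).

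Rxrb (ENSMUSG00000039656, chromosome 17, 34031812 to 34038399, plus strand) went the other way in its values. It had 794.5, 903.9 and 773.1 normalized reads in GFP+ libraries, against 687.8, 757.8 and 688.2 in GFP− libraries. The groups did not overlap, but the log2 fold change of 0.21 (SE 0.09, 95% interval 0.003 to 0.417) did not pass over all genes (adjusted p 0.118 from limma). It passed when libraries were paired by replicate number (adjusted p 0.0151), where 8 of the 9 genes and 8466 of all genes were called, beside 5599 without the pairing. Rxrb made up 86.1 ± 1.9% of the retinoid X receptor sum per kilobase in GFP+ cells and 59.4 ± 3.8% in GFP− cells (SD, n = 3 each).

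The share of Rxra in that sum was 6.02 ± 0.07% in GFP+ cells and 17.9 ± 0.2% in GFP− cells, and that of Rxrg was 7.86 ± 1.89% in GFP+ cells and 22.7 ± 3.7% in GFP− cells. The sum itself was 240.6 ± 16.3 normalized reads per kilobase in GFP+ cells and 301.8 ± 19.0 in GFP− cells. Within the retinoic acid receptors, Rarb held 17.3 ± 3.9% in GFP+ cells and 34.3 ± 7.2% in GFP− cells, and Rara held 66.3 ± 6.6% and Rarg 16.4 ± 3.3% in GFP+ cells, against 53.1 ± 7.6% and 12.6 ± 1.8% in GFP− cells. These shares are descriptions and carry no test, and those of the retinoic acid receptors include the exons that Rarb shares with Top2b.

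**Figure D3:**
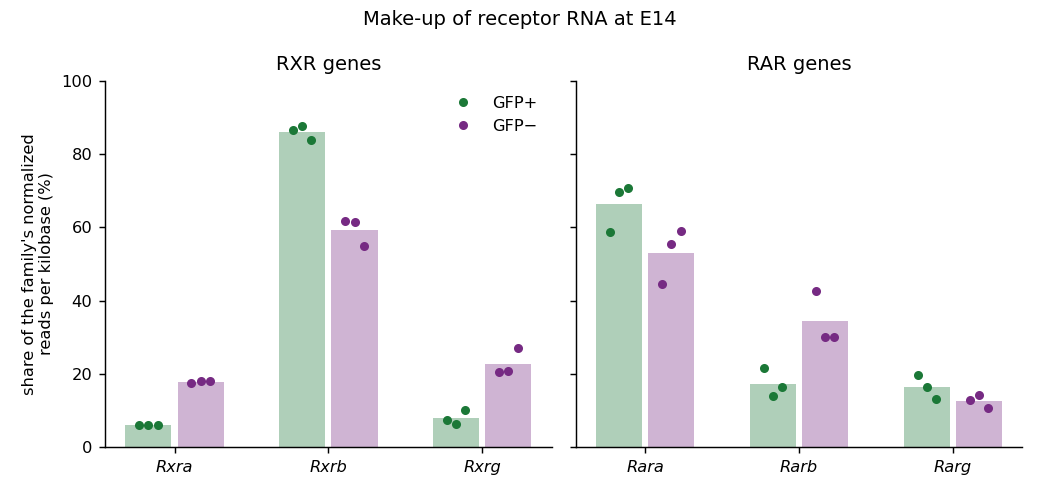
Share of each retinoid X receptor gene (left) and each retinoic acid receptor gene (right) in the sum of its family's normalized reads per kilobase of exon, for GFP+ (green) and GFP− (purple) E14 libraries, with bars at the mean of 3 libraries and a point per library. Rxrb makes up 84.0% to 87.7% of the retinoid X receptor sum in GFP+ libraries, against 55.0% to 61.8% in GFP− libraries.

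Ordered by level per kilobase in GFP+ cells, Aldh1a1 was followed by Rxrb (207 ± 18), Crabp2 (155 ± 14), Rdh10 (57.7 ± 4.1), Rxrg (18.8 ± 3.8), Rara (15.8 ± 1.6), Rxra (14.5 ± 0.8), Crabp1 (4.30 ± 1.19) and Rarb (4.14 ± 1.04 normalized reads per kilobase). The ranges of Rxrg and Rara, of Rara and Rxra, and of Crabp1 and Rarb overlapped, so the order within those pairs is not set by these libraries. In GFP− cells the order began with Crabp2 (213 ± 67) and Rxrb (179 ± 10), whose ranges overlapped, and ended with Rarb (16.1 ± 3.5) and Aldh1a1.

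Both fractions are bulk samples, in which fewer cells of a type and less RNA per cell cannot be told apart. Most markers of the other cell types of the tissue were lower in GFP+ libraries along with the receptors, with exceptions. Besides radial glia, the summed level was 2158 to 2344 normalized reads in GFP+ libraries against 4366 to 5072 in GFP− libraries for 6 markers of GABA neurons. It was 436 to 730 in GFP+ libraries against 6316 to 6989 in GFP− libraries for 6 astrocyte markers, and 622 to 1057 in GFP+ libraries against 3251 to 3610 in GFP− libraries for 6 oligodendrocyte lineage markers. For 7 markers of vessels it was 616 to 699 in GFP+ libraries, against 1368 to 1525 in GFP− libraries. For 6 red blood cell markers it was 274 to 446 in GFP+ libraries, against 12852 to 13608 in GFP− libraries. For 6 microglia markers it was 29.8 to 55.5 in GFP+ libraries (Tyrobp at 0), against 391 to 541 in GFP− libraries, and for 8 meninges markers 88.3 to 135 in GFP+ libraries (Lum at 0), against 163 to 288 in GFP− libraries. For the 5 measured of 6 markers of red nucleus and motor neurons it was 3973 to 4932 in GFP+ libraries against 6356 to 7061 in GFP− libraries. By single genes, all 8 radial glia, 6 red blood cell and 6 microglia markers fell in GFP+ cells, as did 5 of 6 GABA neuron, 5 of 6 oligodendrocyte lineage, 6 of 7 vessel, 4 of 6 astrocyte, 4 of 5 red nucleus and motor neuron and 4 of 7 tested meninges markers. Of all genes tested, 18.0% fell and 12.7% rose. Gad2 of the GABA neuron list rose (2035 ± 15 normalized reads in GFP+ cells and 1739 ± 26 in GFP− cells, log2 fold change 0.23, adjusted p 0.0299 from limma) and makes up most of that list's sum in GFP+ libraries. Twist1 of the meninges list rose as well (19.7 ± 4.2 normalized reads in GFP+ cells and 6.53 ± 2.19 in GFP− cells, log2 fold change 1.48, adjusted p 0.0129 from limma). Gfap (0.61), Kdr (0.21), Mbp (0.16) and Col1a1 (0.09) had log2 fold changes above 0 that did not pass. The part of these cells in the lower receptor values was not tested.

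Genes that take up and store retinol gave small numbers of reads. Of 7 tested, 2 rose and 2 fell in GFP+ cells, beside 12.7% and 18.0% of all genes. The list's median log2 fold change was 0.10. The retinol carriers of blood, Rbp4 (8, 23 and 16 reads in GFP+ libraries against 1, 2 and 2 in GFP− libraries) and Ttr (16, 24 and 15 in GFP+ libraries against 5, 2 and 3 in GFP− libraries), rose by 2.69 and 2.32 on the log2 scale. Stra6, the membrane receptor for Rbp4 (3, 4 and 1 reads in GFP+ libraries against 14, 10 and 18 in GFP− libraries), and its relative Stra6l (1, 0 and 4 in GFP+ libraries against 11, 11 and 9 in GFP− libraries) fell by 1.96 and 2.24 on the log2 scale. The call on Stra6 was lost without GFP− replicate 3, and that on Stra6l without GFP− replicate 2, GFP− replicate 3 or GFP+ replicate 2, with adjusted p of up to 0.0637 and 0.0699 from limma.

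Among other nuclear receptors that pair with retinoid X receptors, 2 of 9 tested rose and 2 fell, beside 12.7% and 18.0% of all genes. The list's median log2 fold change was −0.06. Nr4a2, a marker of dopamine neurons as well, averaged 13236 ± 1072 normalized reads in GFP+ cells and 2181 ± 301 in GFP− cells (log2 fold change 2.61, SE 0.11). Thrb, a thyroid hormone receptor, was at 69.1 ± 4.4 normalized reads in GFP+ cells and 41.3 ± 2.2 in GFP− cells (log2 fold change 0.73), a call lost without GFP− replicate 3 or GFP+ replicate 3 (adjusted p of up to 0.0605 from limma). Nr4a1, a relative of Nr4a2 that neurons switch on with activity, was lower at 23.7 ± 3.3 normalized reads in GFP+ cells, against 67.7 ± 15.1 in GFP− cells (log2 fold change −1.46). Ppara, a fatty acid receptor, had 3 reads over the GFP+ libraries, against 31 over the GFP− libraries, a ratio of 0.102 with an exact 95% counting interval of 0.02 to 0.327. Of 13 coregulators of nuclear receptors, the acetyltransferases Ep300 and Crebbp rose (log2 fold changes 0.37 and 0.33), Nrip1 and Tbl1xr1 fell (−0.55 and −0.51), and the list's median was 0.075. These 4 of 13 calls lie near the 30.7% of all genes that passed. With libraries paired by replicate number, Ncoa3 (0.18), Ncor1 (0.19) and Tbl1x (0.17) rose too, so that 7 of the 13 were called (adjusted p of up to 0.0253 for these 3 from limma). With that pairing, 8466 of all 18260 genes were called. Neither Ep300 nor Crebbp passed with each library scaled to the same total. Ep300 was also lost without any 1 of 4 libraries (GFP− replicate 2 or 3, GFP+ replicate 1 or 3) and Crebbp without GFP− replicate 3, with adjusted p of up to 0.0799 and 0.0538 from limma over these settings.

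Of 19 genes listed as targets of retinoic acid in mouse or other embryos, 15 were tested. In GFP+ cells 2 rose and 7 fell, beside 12.7% and 18.0% of all genes. The list's median log2 fold change was −0.41. Zfp703 (62.8 ± 11.7 normalized reads in GFP+ cells and 21.6 ± 6.5 in GFP− cells) rose by 1.52 on the log2 scale, and Dhrs3 was the other higher gene. The lower genes were led by 3 transcription factor genes. Meis2 averaged 92.1 ± 7.7 normalized reads in GFP+ cells and 1256 ± 183 in GFP− cells (log2 fold change −3.75), Nr2f2 337 ± 43 in GFP+ cells and 2787 ± 264 in GFP− cells (−3.05), and Nr2f1 287 ± 16 in GFP+ cells and 1479 ± 142 in GFP− cells (−2.36). With libraries paired by replicate number, Crabp2 and Nav2 (−0.19, adjusted p 0.0491 from limma) were called as well. Rarb and Stra6 are on this list too, and many of its genes are also set by the region or type of a cell.

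Aldehyde dehydrogenases outside the retinoid enzymes were mostly lower in GFP+ cells. Of 13 tested, 10 fell and 1 rose, beside 18.0% and 12.7% of all genes. The list's median log2 fold change was −0.81. Aldh1l1, a folate enzyme and astrocyte marker, averaged 187 ± 25 normalized reads in GFP+ cells and 4600 ± 253 in GFP− cells (log2 fold change −4.62), and the mitochondrial Aldh2 379 ± 73 in GFP+ cells and 1053 ± 147 in GFP− cells (−1.48). Aldh3b1 had 0 reads in all 3 GFP+ libraries, against 34 reads over the GFP− libraries. Its GFP− mean was 10.2-fold a floor of 3 reads over the GFP+ group, with the counting error of the GFP− reads left out. Aldh1l2, a mitochondrial folate enzyme, rose by 0.28 on the log2 scale, which did not pass with each library scaled to the same total or without any 1 of 4 libraries (GFP− replicate 2 or 3, GFP+ replicate 1 or 3), with an adjusted p of up to 0.126 from limma.

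From E14 to birth, Aldh1a1 RNA of GFP+ cells went up at each step, while Rxrb and Dhrs3 fell and Rdh10 did not pass the test. Aldh1a1 had 22867, 21984 and 16975 normalized reads at E14, 89879, 78397 and 89565 at E16, and 151650, 173889 and 178449 at P0. No library of one age overlapped the next. Its share of the reads in the table was 0.0660% to 0.0934% at E14, 0.332% to 0.365% at E16 and 0.629% to 0.719% at P0. At E16 it was 4.20-fold higher than at E14 (log2 fold change 2.07, SE 0.12, adjusted p 5.14e-07 from limma), the fifth largest rise of 10781 genes, and at P0 it was 1.95-fold higher than at E16 (0.97, SE 0.12, adjusted p 6.77e-05). At P0 it was 8.20-fold higher than at E14 (3.04, SE 0.12, adjusted p 8.62e-10), again the fifth largest rise.

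Of the 3 retinoid genes in the time series, 2 passed at E16 against E14 (1 higher and 1 lower), where 33.0% of all genes passed, with 15.2% higher and 17.8% lower. At P0 against E16, 1 of the 3 passed and was higher, where 33.4% passed and 16.8% were higher, and at P0 against E14, 2 passed (1 higher and 1 lower), where 55.7% passed, with 25.1% higher and 30.6% lower. The groups did not overlap for 3 of the 3 genes at E16 against E14 (46.4% of all genes), for 1 at P0 against E16 (44.8%) and for 2 at P0 against E14 (65.2%). Over the 3 ages in 1 F test, 2 of 3 passed, against 59.7% of all genes. The later change of Aldh1a1, P0 over E16, was smaller on the log2 scale than the earlier, E16 over E14, by 1.10 (SE 0.21, adjusted p 0.00463 from limma), a contrast in which 13.6% of all genes passed and 5.62% were lower. Both intervals are taken as they are, and their lengths in days are not equal.

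Rxrb had 892.2, 897.0 and 990.6 normalized reads at E14, 634.3, 872.5 and 749.7 at E16, and 761.3, 749.0 and 672.3 at P0. Every E16 and P0 library lay below every E14 library, and the E16 and P0 ranges overlapped. It fell by 0.31 on the log2 scale at E16 against E14 (SE 0.11, adjusted p 0.0462 from limma) and by 0.35 at P0 against E14 (adjusted p 0.0163). The E16 call did not pass under either other scaling (−0.27 and −0.28, adjusted p 0.104 and 0.0756), with only the libraries of both ages fitted (adjusted p 0.0589), or without any 1 of 7 libraries (all but E16 replicate 2 and P0 replicate 3), where the log2 fold change was −0.34 to −0.19 and the adjusted p up to 0.179. The P0 call was lost without E14 replicate 3 (−0.30, adjusted p 0.0647) or P0 replicate 3 (−0.29, adjusted p 0.0597).

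Rdh10 had 311.7, 330.0 and 327.3 normalized reads at E14, 262.5, 296.8 and 304.2 at E16, and 378.2, 358.3 and 271.4 at P0. The P0 libraries spread over the ranges of both earlier ages, and no difference passed in limma (log2 fold change −0.17 at E16 against E14, adjusted p 0.358; 0.21 at P0 against E16, adjusted p 0.241; 0.04 at P0 against E14, 95% interval −0.24 to 0.33, adjusted p 0.804). Without P0 replicate 3 the later step was called (0.36, adjusted p 0.0437). Per kilobase of exon, Aldh1a1, Rxrb and Rdh10 kept this order at all 3 ages with no overlap, at 4174 ± 644, 233 ± 14 and 77.6 ± 2.4 normalized reads per kilobase at E14 and 34028 ± 2904, 183 ± 12 and 80.8 ± 13.6 at P0 (SD, n = 3 each).

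**Figure D4:**
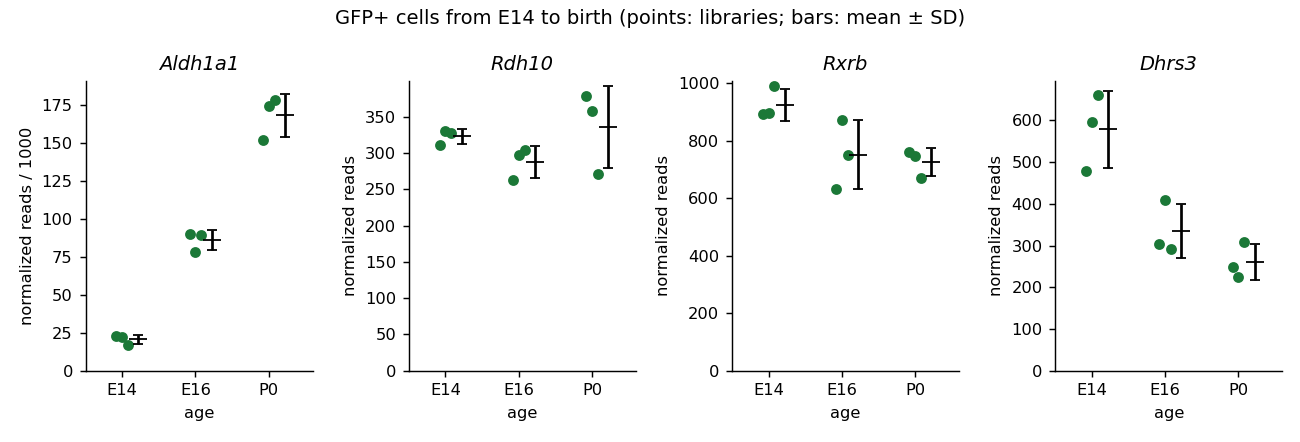
Normalized reads of Aldh1a1 (divided by 1000), Rdh10, Rxrb and Dhrs3 in each GFP+ library at E14, E16 and P0, with the mean ± SD of 3 libraries beside the points and each axis starting at 0. Aldh1a1 lies at 16975 to 22867 normalized reads at E14, 78397 to 89879 at E16 and 151650 to 178449 at P0, while every Rdh10 value lies between 262.5 and 378.2 and Dhrs3 is lower at E16 and P0 than at E14.

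Dhrs3, the reductase that opposes Rdh10, fell at the earlier step and over the whole span, at which Aldh1a1 rose. It averaged 579 ± 93 normalized reads at E14, 335 ± 65 at E16 and 261 ± 43 at P0 (SD, n = 3 each), and fell by 0.79 on the log2 scale at E16 against E14 (adjusted p 0.00202) and by 1.15 at P0 against E14 (SE 0.16, adjusted p 4.09e-05 from limma). At P0 against E16 the groups overlapped and it did not pass (log2 fold change −0.35, adjusted p 0.108 from limma). Of 7 synthesis genes measured, 3 rose and 2 fell at P0 against E14, where 25.1% of all genes rose and 30.6% fell. The list's median log2 fold change was 0.16, beside −0.05 over all genes. The higher ones were Aldh1a1, Rdh11 (0.40) and Rdh14 (0.24), and the other lower one was Adh5 (−0.50). The call on Rdh14 was lost without any 1 of 4 libraries (E14 replicate 1 or 2, P0 replicate 2 or 3), with an adjusted p of up to 0.103 from limma. At E16 against E14, 2 of the 7 rose (Aldh1a1 and Rdh11, 0.31) and 1 fell, where 15.2% of all genes rose and 17.8% fell. At P0 against E16, 1 rose and 1 fell (Adh5, −0.42), where 16.8% of all genes rose and 16.6% fell.

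Of the remaining pathway genes measured across ages, the carrier Fabp5 averaged 21292 ± 1496 normalized reads at E14, 20300 ± 3872 at E16 and 14718 ± 1983 at P0, and fell at P0 by 0.54 on the log2 scale against E14 (adjusted p 0.00291 from limma). It fell by 0.45 against E16 (adjusted p 0.0165), where the groups overlapped and the call was lost without E16 replicate 1 or 3 or P0 replicate 2 (adjusted p of up to 0.0813). Dgat1, which can esterify retinol, was higher at P0 than at E16 (log2 fold change 0.71, adjusted p 0.0039) and than at E14 (0.43, adjusted p 0.0294, lost without any 1 of 4 libraries, E14 replicate 1 or 3 and P0 replicate 1 or 2, with up to 0.0907). Lrp1, a receptor that takes up lipoproteins, was lower at E16 than at E14 (−0.20) and higher at P0 than at E16 (0.20), and each call held in 8 of 17 alternative settings.

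Of the nuclear receptor partners, 3 were measured across ages. Counts for this list and those below at P0 against E14 stand beside all genes, of which 55.7% passed. Of all genes, 25.1% were higher and 30.6% lower. Nr4a2 averaged 11197 ± 91 normalized reads at E14, 8284 ± 685 at E16 and 7114 ± 610 at P0, and fell at P0 against E14 by 0.66 on the log2 scale (SE 0.08, adjusted p 1.1e-05 from limma). Nr1h2, an oxysterol receptor, fell by 0.63 and Thra, a thyroid hormone receptor, rose by 0.23 over the same span, so that 1 of 3 tested rose and 2 fell, with a median of −0.63. The call on Thra was lost without any 1 of 7 libraries (all but E16 replicates 1 and 2), with an adjusted p of up to 0.132 from limma. Of 13 coregulators, 4 fell and 1 rose at P0 against E14 (median log2 fold change 0.004), the largest of the lower being Sin3a (−0.79), Ep300 (−0.60) and Med1 (−0.34) and the higher one Hdac3 (0.22). The call on Hdac3 was lost without any 1 of 5 libraries (E14 replicate 1 or 2, E16 replicate 3, P0 replicate 2 or 3), with an adjusted p of up to 0.147 from limma.

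Among retinoic acid targets in the time series, 1 of 5 rose and 3 fell at P0 against E14, with a median log2 fold change of −1.15. The lower ones were Meis1 (−1.54, at 611 ± 25 normalized reads at E14, 357 ± 33 at E16 and 214 ± 51 at P0), Nr2f1 (−1.38) and Dhrs3, and the higher one was Nav2 (0.51, at 488 ± 34, 533 ± 28 and 693 ± 26 in the same order of ages). Of the 10 aldehyde dehydrogenases measured across ages, 5 rose and 2 fell at P0 against E14, with a median of 0.28. Aldh3a2 (0.91), Aldh5a1 (0.88) and Aldh9a1 (0.76) had the largest rises, and Aldh18a1 (−0.49) and Aldh1l2 (−0.25) were the lower ones. The call on Aldh1l2 was lost with other scaling factors (edgeR's TMM) and without any 1 of 4 libraries (E14 or P0 replicates 2 and 3), with an adjusted p of up to 0.117 from limma.

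The summed level of the 8 dopamine neuron markers was 86706 to 98872 normalized reads at E14, 79300 to 88710 at E16 and 76816 to 108776 at P0, with overlap between all ages. Its members moved in both directions, and at P0 against E14 the tests called 2 of the 8 higher and 5 lower (median log2 fold change −0.67). Slc6a3, the dopamine transporter (1.503), and Slc18a2, the vesicular monoamine transporter (0.34), rose with Aldh1a1, while Foxa2 (−1.09), Lmx1b (−0.76), En1 (−0.725), Ddc (−0.69) and Nr4a2 fell and Th did not pass (0.14). Pitx3, the gene of the reporter, fell as well (−1.10, SE 0.11, adjusted p 2.42e-06 from limma). Whether the GFP+ gate held the same cells at each age was not tested. The 3 of 8 radial glia markers in the time series table summed to 4047 to 4306 at E14, 2737 to 3128 at E16 and 2202 to 4403 at P0. Of these, Fabp7 rose at P0 against E14 (log2 fold change 1.19), while Vim (−1.62) and Nes (−1.30) fell. Of the other cell type markers in this table, Mbp of oligodendrocytes (0.69) and Slc17a6 of glutamate neurons (0.49) rose and Gad1 of GABA neurons (−0.76) fell over the same span, and Gad2 did not pass (0.23). The part of these cells in the values of Aldh1a1 was not tested.

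Over the 9 time series libraries, the 5 genes whose log2 values followed Aldh1a1 most closely, among those with a mean of at least 50 normalized reads, were Hdac9 (Pearson r 0.998), Prelid3a (0.997), Pcdh19 (0.997), Ccdc65 (0.996) and Vstm2a (0.996). The 9 points share 3 ages and the libraries' scaling, and r is given as a description. Hdac9, a histone deacetylase, averaged 250 ± 39 normalized reads at E14, 845 ± 64 at E16 and 1406 ± 214 at P0, and Pcdh19, a cell adhesion protein, 809 ± 79, 2177 ± 101 and 3298 ± 163. In the sort at E14, 3 of these 5 genes fell in GFP+ cells and none rose (limma, adjusted over all 18260 genes). Over all genes tested there, 18.0% were lower and 12.7% higher. Hdac9 had 167 ± 26 normalized reads in GFP+ cells and 469 ± 58 in GFP− cells (log2 fold change −1.49, SE 0.14, adjusted p 1.06e-05). Pcdh19 had 422 ± 89 normalized reads in GFP+ cells and 1556 ± 106 in GFP− cells (−1.90, SE 0.14), and Vstm2a had 589 ± 71 in GFP+ cells and 1402 ± 63 in GFP− cells (−1.26, SE 0.10; SD, n = 3 each).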

How the data were processed

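Total RNA of sorted cells was depleted of ribosomal RNA and made into ScriptSeq v2 libraries, per the labels' protocols. Builds GRCm38 and mm10 and the tools TopHat2, Trim Galore and DESeq2 (no versions) come from the submitters' processing notes. The read counter, its use of strand and the circRNA caller are not given in the sources used here. The authors deposited normalized reads per gene and per circRNA, used here as signal values. The authors' deposited tables also hold their own log2 fold changes and p-values, used here for circRNAs, and by them, too, 6 of the 9 genes passed in GFP+ against GFP− cells.

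Values in each library were whole multiples of 1 step (100% within 0.1), which gave the reads and depths. The lowest value in the time series table was 38 reads, so genes of low abundance were not analysed there and its reads entered no count model. Reads carry no molecular identifiers. Counting intervals cover counting error only, and the floor for Aldh3b1 covers that of the GFP+ reads alone.

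Genes with a mean of at least 5 normalized reads were fitted on log2(normalized reads + 1) by two-sided limma-trend tests (R 4.3.3, limma 3.58.1), the 6 sorted and the 9 time series libraries apart because their scaling differs. Calls were made at a Benjamini-Hochberg adjusted p of 0.05 over all genes. The code was tested on simulated data. Gene positions and exon lengths are from GENCODE M21 and promoters from RefSeq. Every one of the 9 genes is named. From the lists of uptake, synthesis, binding and receptors each gene past the threshold was to be named, from the other lists up to 3 per direction by size, and at the earlier and later steps across ages the text gives a selection. Some pathway genes are not reported here, and the counts of the lists leave them out. The 9 genes and the lists were chosen with earlier results of these data known.

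Sorted libraries are numbered as the deposited columns are, and these numbers could not be matched to single samples, only to groups. Deviations from the group mean correlated between same-numbered GFP+ and GFP− columns at 0.645, 0.357 and 0.234. Differently numbered columns correlated at −0.542 to 0.395, the highest being GFP− 3 with GFP+ 2, above the same-numbered values of 0.357 and 0.234. These values do not settle whether the numbers pair the libraries. The paired fit is therefore an alternative, given where it changes a call. Alternatives were other pseudocounts (0.5 and 10), filters and scalings (equal totals, TMM), the pairing, leaving out each library, the ages compared alone, and the quasi-likelihood test of edgeR 4.0.16 on recovered reads of the sorted libraries. With the pairing, this last test was added after the data were seen.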

Additional observations from a re-analysis of the deposited data

Results flagged for a closer look

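On the log2 scale, Aldh1a1 changed less between E16 and P0 than between E14 and E16. The later change minus the earlier one was −1.10 (SE 0.21, adjusted p 0.00463 from limma). In normalized reads the later gain was not the smaller one, with means of 20609 at E14, 85947 at E16 and 167996 at P0 (n = 3 libraries each).

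Circular RNAs, which are closed loops seen by their back-splice reads, were listed for 2 of the 9 genes in the time series, 3 circles among 7528. circ_01625_Aldh1a1 had 0 reads in each E14 library, 3, 0 and 3 reads at E16 (6 in all) and 0, 11 and 3 reads at P0 (14 in all). circ_04780_Aldh1a1 had 4 reads, all in 1 P0 library, and circ_03098_Rarb had 8 reads, all in 1 E16 library. The lowest value above 0 in that table is 2 reads, so a 0 can stand for 1 read and no limit is drawn from it. In the authors' deposited table no change of these circles passed an adjusted p of 0.05, the lowest being that of circ_01625_Aldh1a1 at P0 against E14 (log2 fold change 5.61, SE 2.15, adjusted p 0.16), where the host gene also rose. Libraries held 11196 to 33061 circRNA reads.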

How the results depend on the processing

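Aldh1a1 passed the threshold under every alternative tried, with log2 fold changes of 7.56 to 7.94 in GFP+ against GFP− cells and 2.90 to 3.12 at P0 against E14. Of 335 values of the 9 genes under alternatives, 308 kept their direction and side of the threshold, 17 lost and 6 gained the call, and 4 changed sign, all without 1 library and all of differences that did not pass: Rxrb at P0 against E16 (0.075 without E16 replicate 2 and 0.0178 without P0 replicate 3, −0.155 to 0.075 over libraries left out) and Rdh10 at P0 against E14 (−0.0501 without P0 replicate 1 and −0.0111 without P0 replicate 2, up to 0.188). Of the 9 genes, 4 to 8 were called in the sort. Of the 3 genes across ages, E16 against E14 gave 1 call, beside 2, with equal totals, with TMM factors and with both ages alone, and the test over 3 ages gave 1 with equal totals and with TMM factors. Leaving out 1 library gave 1 to 2 calls in each comparison of ages. In the contrast of the later with the earlier change, equal totals gave 632 higher and 717 lower genes, beside 862 higher and 606 lower. For the pathway genes, 63 of 101 calls held under all their alternatives and none changed sign.

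In the time series, same-numbered libraries correlated at −0.113 to 0.245 and differently numbered ones at −0.3 to 0.149. These values do not settle whether libraries of 1 number share more than that number. The replicate block left 2, 1 and 2 of the 3 genes called at E16 against E14, P0 against E16 and P0 against E14. In the sort, the pairing by replicate number changed no other member's call than those of Rxrb and Crabp2. Of the 67 other pathway genes tested in the sort, 42 were called with the pairing, beside 38 without it, with 4 gained (Ncoa3, Ncor1, Tbl1x and Nav2) and 0 lost. Of all 18260 genes, 8466 were called with the pairing, beside 5599 without it. Crabp1, with 2 to 22 reads in a library, gave no value under a filter of 50 normalized reads.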
